A study of Mus musculus with 12 samples.

Results

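Translation initiation factors (Eif genes) load messenger RNA onto the ribosome and find the start codon. Elongation factors (Eef genes) move the ribosome along the message. Transcripts of both were followed through 4 groups of mouse RNA samples labelled as adult dorsal root ganglion (DRG) neurons. Members were all genes whose symbol starts with Eif and a digit, or with Eef, apart from Eif2s3y and pseudogenes. This gave 61 of the 9073 genes in the deposited table, and 60 of them were among the 8312 genes with enough counts to be compared. The member left out was Eefsec, the elongation factor that delivers selenocysteine, with 8, 14, 15 and 10 counts summed by group. All groups carried the genotype RPL22HA+/+;Advillin-Cre+, in which a Cre driven by the sensory neuron gene Advillin turns on an HA-tagged ribosomal protein Rpl22, so that an anti-HA antibody pulls down ribosomes and their RNA mainly from those neurons. Adult neurons had received AAV-control or AAV-shGpr151, a viral vector with a hairpin against Gpr151, a receptor gene. From each treatment RNA was taken before the pulldown (Input) and from it (IP), with 3 columns of counts per group. The series' design text describes neurons cultured from mice given a sciatic nerve injury beforehand, whereas the extraction protocol describes freshly collected ganglia, and which of them holds was not settled here. The labels give the neurons as adult, and of sex and the number of animals they say nothing.

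In eukaryotes the small ribosomal subunit takes up the initiator tRNA with eIF2 and GTP (the ternary complex), together with eIF1, eIF1A, eIF5 and the many-subunit scaffold eIF3. The eIF4F complex, made of the cap-binding protein eIF4E, the scaffold eIF4G and the helicase eIF4A, brings the messenger RNA. Stress kinases phosphorylate eIF2 alpha and thereby block its recharging by the exchange factor eIF2B, while mTORC1 frees eIF4E by phosphorylating the 4E-binding proteins. During elongation eEF1A delivers aminoacyl-tRNA and is recharged by the eEF1B complex, and eEF2 translocates the ribosome. Many of these messages, like those of ribosomal proteins, begin with a run of pyrimidines (a 5' terminal oligopyrimidine or TOP motif) that places them under mTORC1 control. In sensory neurons translation is studied in axons as well as in cell bodies, in particular after nerve injury.

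Because TOP motifs lie at the first transcribed base, the start-site windows of a few members are shown, from 10 bases before to 20 bases after the RefSeq start, 30 bases in all, on build GRCm38.p6. Capitals mark a run of at least 8 pyrimidines (C or T). The first 4 are members that hold such a run and the other 4 are members without one that carry results given further on.
Eef1a1, chr9:78481705-78481734, minus strand: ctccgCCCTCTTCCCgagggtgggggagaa
Eif2s3x, chrX:94212632-94212661, minus strand: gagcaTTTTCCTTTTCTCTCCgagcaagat
Eif3f, chr7:108934405-108934434, plus strand: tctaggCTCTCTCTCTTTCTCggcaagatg
Eif3l, chr15:79075213-79075242, plus strand: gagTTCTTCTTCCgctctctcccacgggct
Eef1b2, chr1:63176821-63176850, plus strand: ctgcagttccgccggaagtagccgaggcct
Eef2, chr10:81176621-81176650, plus strand: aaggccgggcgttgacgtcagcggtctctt
Eef1e1, chr13:38659009-38659038, minus strand: gtcctagctgtgcaggccccgcctccctag
Eif3c, chr7:126566347-126566376, minus strand: ctgctcagagggactcggcagcttagctgg
A start-site window was found for 49 of the 61 members. Of the 49, 8 (16.3%) held a run of at least 8 pyrimidines, read in the sense of the transcript, against 13.0% of 27025 genes with a window. The 8 were Eef1a1, Eif2b2, Eif2b5, Eif2s3x, Eif3f, Eif3l, Eif4e and Eif4enif1. A run was counted anywhere in any window of a gene, so it need not lie at the first transcribed base. That of Eif4e lay wholly before the start. Runs of at least 8 purines, the same motif on the other strand, were in 10.2% of the members and 15.4% of all genes. Eef1b2 and Eef2, classical TOP messages, had no such run in this window. In Eef2 a run of 6 pyrimidines from base 15 reached the end of the window, which may cut it off. Eef1d, Eef1g, Eif3e and Eif3h, taken further on as TOP messages, had no window. Whether the RefSeq starts are those used in these cells was not tested.

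The 4 groups held 6332991 and 6148538 counts in Input, and 4245486 and 3285258 in IP, control first in each, and single columns held 1094523 to 2111544, so column counts are to be read against that depth. Values listed without group names run through Input first (control, then shGpr151) and then through IP in the same way. A library here means the summed counts of a group. Over all genes the 3 columns of a group differed by about counting noise (a chi-square of 0.98 to 1.05 per degree of freedom in 12 pairs, against 1.8 to 156 in 54 pairs from different groups), so each group was counted as 1 sample. Over the members alone the within-group range was 0.918 to 1.49. In 19 of 244 cases (7.79%) the 3 columns of a member spread past the 95% point of counting error, led by Eef1akmt3 in Input shGpr151 and Eif4g1 in IP control. No p-value is therefore given, and every 95% interval covers counting error in these libraries only, not the spread between animals or cultures. A gene was called higher or lower where its ratio was at least 1.5-fold and the interval left out 0 on the log2 scale. Ratios were scaled by TMM, edgeR's trimmed mean of M-values, which sets the typical gene near 0. Gpr151 itself had 24 and 13 counts in Input and 314 and 250 in IP. Its log2 ratio of shGpr151 over control was -0.86 in Input (95% interval -1.96 to 0.17) and -0.0019 in IP (95% interval -0.25 to 0.24), so hairpin libraries are named here by their label. Marker genes of sensory neurons (10 of 10 listed) summed to 1109 and 1299 CPM (counts scaled to the library total) in Input and 17596 and 17025 in IP. Those of macrophages (10 of 10) summed to 466, 495, 539 and 562 in the same group order, and those of fibroblasts (5 of 6) to 92.4, 74.7, 546 and 709. Markers of satellite glia (6 of 6) stood at 376 and 372 in Input and 1709 and 1908 in IP, those of Schwann cells (5 of 7) at 116 and 116, then 533 and 565, and those of endothelial and mural cells (5 of 6) at 165 and 219, then 293 and 268. By total counts the median gene itself had a log2 ratio of IP over Input of 2.23 (control) and 2.29 (shGpr151). A larger sum is therefore not read as enrichment. After TMM scaling 9 of 10 macrophage markers were called lower in each pulldown pair, with medians of -1.519 and -1.655. Only C1qa was called higher, on 44, 43, 502 and 503 counts. Of the neuron markers 9 of 10 were called higher in each pair, and 3 of 4 endothelial and mural markers compared were lower. Fibroblast markers had 2 and 3 higher calls of 5 and 0 lower. Glia and Schwann markers had calls in both directions. As in any bulk RNA, fewer cells of a type and less RNA per cell cannot be told apart.

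Translation factor transcripts made up 0.504% of all counts in the Input control library, 0.595% in the Input library labelled shGpr151, 1.71% in the IP control library and 1.67% in the IP library labelled shGpr151. On the same scale of total counts the median gene compared had a log2 ratio of IP over Input of 2.23 in control and 2.29 in shGpr151. The larger share in IP is therefore not read as enrichment of the members. The median member had 119.5 counts in Input control against 37 for the median gene compared, and 478 against 124 in IP control, so the members' intervals were narrower than those of most genes. Within paralog pairs and complexes the genes gave different shares of the counts in IP and in Input. These shares do not depend on how libraries are scaled to each other. Transcript length was not analysed, so a share is compared between libraries and not between genes.

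Such a difference was large in eIF2, the carrier of the initiator tRNA, whose alpha, beta and gamma subunits are encoded by Eif2s1, Eif2s2 and Eif2s3x. Eif2s3x had 19, 13 and 18 counts in Input control and 16, 16 and 18 in Input shGpr151, and in IP 1001, 893 and 951 in control and 702, 678 and 696 in shGpr151. The pulldown columns were all far above every Input column. Eif2s3x gave 3.78% (2.82 to 4.95) of the counts of the 3 subunits in Input control (95% exact binomial interval, as for all shares here) and 4.16% (3.1 to 5.44) in the Input library labelled shGpr151. In the IP libraries it gave 29.7% (28.8 to 30.6) and 30.1% (29 to 31.1). Eif2s2 differed the other way, with 89.7% and 89.5% in Input and 65.8% and 65.2% in IP. Eif2s1, the subunit that stress kinases phosphorylate, had shares of 6.5%, 6.32%, 4.51% and 4.72%. It had 23, 35 and 28 counts in Input control and 25, 24 and 27 in Input shGpr151, and in IP 141, 156 and 136 in control and 123, 85 and 118 in shGpr151. Eif2s3x has a near-identical copy on the Y chromosome, Eif2s3y, which is not among the members, and how reads shared by such copies were counted is not stated.

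The eIF3 scaffold showed differences of similar size. Eif3c, a core subunit, had 35, 34 and 40 counts in Input control and 50, 31 and 41 in Input shGpr151, and in IP 787, 839 and 839 in control and 612, 588 and 597 in shGpr151. It gave 3.07% (2.53 to 3.69) and 2.88% (2.4 to 3.43) of the counts of the 13 eIF3 genes in Input, and 24.4% (23.6 to 25.2) and 24.4% (23.5 to 25.4) in IP. Eif3k, a small peripheral subunit, differed the other way. It supplied 46.4% (44.7 to 48) and 48% (46.5 to 49.5) of eIF3 counts in Input and 13.9% (13.2 to 14.6) and 13.4% (12.6 to 14.2) in IP. It had 537, 536 and 573 counts in Input control and 668, 687 and 677 in Input shGpr151, and in IP 480, 475 and 449 in control and 329, 318 and 337 in shGpr151. Eif3a, the largest subunit, went in share from 2.28% and 1.65% to 8.69% and 9.56%, and the loosely bound Eif3j1 from 1.44% and 0.945% to 5.75% and 6.09%. In both genes the IP intervals lay wholly above the Input intervals.

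Paralog pairs of the initiation machinery also differed between Input and IP. Eif1a and Eif1ax encode 2 forms of eIF1A, which with eIF1 keeps the scanning ribosome open. Eif1a gave 4.58% (3.06 to 6.54) and 3.87% (2.61 to 5.51) of the pair's counts in Input and 27.7% (25.3 to 30.2) and 30.1% (27.2 to 33.1) in IP. Eif1b gave 12.4% (11.7 to 13) and 12.3% (11.7 to 12.9) of the Eif1 and Eif1b counts in Input and 23.2% (22.4 to 24) and 22.8% (21.9 to 23.7) in IP. Eif1a and Eif1b thus had a larger share in both pulldown libraries than in either Input library.

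Among the eIF4F genes, Eif4a2, the helicase paralog abundant in brain, gave 30.1% (26.7 to 33.7) and 30.9% (27.3 to 34.5) of the Eif4a1 and Eif4a2 counts in Input and 49.1% (47.1 to 51.1) and 47.3% (45.1 to 49.4) in IP. Eif4a2 had 62, 62 and 79 counts in Input control and 68, 62 and 73 in Input shGpr151, and in IP 404, 434 and 385 in control and 334, 369 and 313 in shGpr151. Eif4a1 had 150, 139 and 182, then 153, 160 and 142, then 431, 384 and 452, then 388, 347 and 398 counts in the same order. Relative to Eif4a1, Eif4a2 was thus higher in each of the 6 IP columns than in any Input column. Eif4g3 gave 6.08% (4.4 to 8.16) and 4.76% (3.24 to 6.73) of the counts of the 3 eIF4G genes in Input and 17.6% (15.9 to 19.4) and 17.6% (15.9 to 19.5) in IP. Eif4e2, a cap-binding relative of eIF4E that represses translation, gave, in Input, 63.7% (58.3 to 68.8) and 69.1% (64 to 73.9) of their joint counts. In IP its share was lower, at 38.7% (36.4 to 41) and 36.9% (34.2 to 39.5). Eif4e had 33, 34 and 58, then 37, 33 and 40, then 356, 349 and 385, then 297, 260 and 281 counts in that order, and its TMM-scaled IP columns all exceeded the Input columns of the same treatment.

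**Figure D1:**
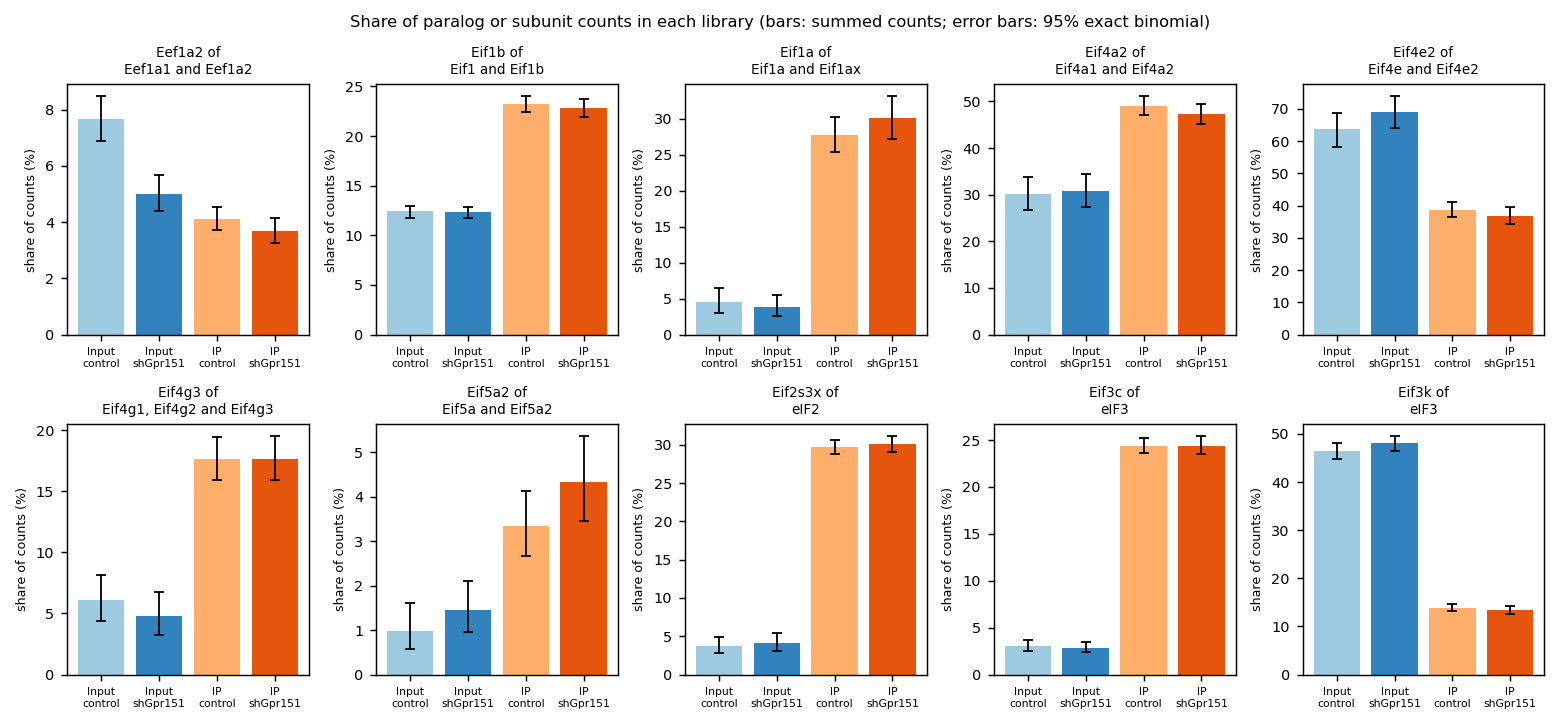
Share of counts, in percent, that a gene gave to its paralog group or complex in the Input (blue) and IP (orange) libraries, with lighter bars for control and darker bars for shGpr151. Bars are summed counts of a library and error bars are 95% exact binomial intervals. Input and IP intervals do not overlap in any panel but Eef1a2, where those of Input shGpr151 and IP control touch, while the bars of the 2 treatments within IP lie close together.

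For eIF5A, which relieves ribosome stalls and carries the hypusine modification, the paralog Eif5a2 also had a larger share in IP. It was 0.986% (0.565 to 1.6) and 1.45% (0.948 to 2.11) in Input and 3.34% (2.67 to 4.13) and 4.34% (3.46 to 5.36) in IP. Eif5a had 559, 514 and 534 counts in Input control and 576, 557 and 637 in Input shGpr151, and in IP 820, 771 and 780 in control and 599, 585 and 603 in shGpr151. Among elongation factors the pair is Eef1a1, expressed in most cells, and Eef1a2, which takes over in mature neurons and muscle. Eef1a2 gave 7.65% (6.88 to 8.47) of their counts in Input control and 5% (4.38 to 5.69) in the Input library labelled shGpr151. Its share in IP was 4.11% (3.72 to 4.54) and 3.67% (3.24 to 4.13). Thus the form known from mature neurons was not the one that gained share in the pulldown. Within eEF1B, Eef1d had a smaller share in IP than in Input, with 15.3% and 13.5% against 5.37% and 5.52% of the counts of Eef1b2, Eef1d and Eef1g. Eef1b2 gave 63.4% and 61.8% in Input and 74.5% and 73.7% in IP.

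Set against the typical gene, 18 of 60 members (30%) were called higher and 11 (18.3%) lower in the IP control than in the Input control library, against 30.5% and 30.7% of all 8312 genes. In the libraries labelled shGpr151, 19 members (31.7%) were higher and 18 (30%) lower, against 32.1% and 31.5%. The counts of members called are thus near those of all genes, apart from fewer lower calls in the control pair. Directions here are relative to the median gene, which stood at 0.056 and 0.098. With total counts as the scale in place of TMM it stands at 2.23 and 2.29 on the log2 scale, and most lower calls turn higher. The 2 pulldown ratios come from separate libraries: 17 of 60 members were called higher in both, 10 lower in both and 0 in opposite directions. Of all 8312 genes 2118 were called higher in both, 2239 lower in both and 12 in opposite directions. Across the 60 members the Pearson correlation of the 2 pulldown ratios was 0.951 and Spearman's rho 0.888, and over all genes 0.951 and 0.91. These are descriptions across genes, which share libraries and depth.

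By role, start codon and ternary complex genes were called higher in 6 of 12 cases in both pulldown comparisons, and lower in 2 and 3. The shares of all genes were 30.5% and 32.1% higher, and 30.7% and 31.5% lower. Eif2s3x led with a log2 ratio of 4.23 (95% interval 3.83 to 4.67) in the control libraries and 4.09 in those labelled shGpr151. Eif1a followed with 2.07 and 2.04, on 12, 9 and 7, then 11, 8 and 10, then 112, 112 and 132, then 91, 103 and 97 counts by column, and Eif5b, the factor that joins the ribosomal subunits, with 2.00 and 1.68. Eif5, which triggers GTP hydrolysis by eIF2, stood at 0.95 and 1.49, Eif2s2 at 0.81 and 0.77, and Eif2s1 at 0.74 and 0.81. Eif1, which guards start codon choice, was lower at -1.51 and -1.79, and Eif1ax at -0.93 and -1.38. Both turn to higher on total counts, and Eif1b (-0.42 and -0.71), called lower in the second comparison only, does so too.

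The exchange factor eIF2B, with 5 subunit genes, had 3 called higher in both comparisons (30.5% and 32.1% of all genes) and 1 lower (30.7% and 31.5%). Eif2b4 gave 2.09 and 1.96, on 5, 4 and 10, then 10, 6 and 4, then 93, 72 and 80, then 66, 66 and 58 counts by column. Eif2b1 gave 2.04 and 1.04, and Eif2b2 0.85 and 0.69. The second Eif2b1 call and the second Eif2b2 call each ended without 1 column: Eif2b1 0.66 without Input shGpr151 column 1, and Eif2b2 0.42 without Input shGpr151 column 2. Eif2b3 was the subunit called lower, at -1.46 and -1.24, and was higher on total counts. The kinase gene Eif2ak1 stood at 0.017 and 0.99, of which only the latter was called, and was at 0.61 without Input shGpr151 column 1. Eif2ak3, the kinase of the endoplasmic reticulum, had -0.42 and 0.60, both within counting error, and Eif2ak2 and Eif2ak4 were not analysed here.

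Of 13 eIF3 genes 3 were called higher in both comparisons (30.5% and 32.1% of all genes), with 2 and 3 called lower (30.7% and 31.5%). The higher ones were Eif3c (2.90 and 2.59), Eif3j1 (1.91 and 2.19) and Eif3a (1.84 and 2.04). Eif3j1 had 16, 16 and 19, then 15, 12 and 13, then 182, 188 and 211, then 162, 137 and 149 counts by column and Eif3a had 30, 26 and 25, then 18, 20 and 32, then 291, 300 and 287, then 272, 222 and 209, with no overlap of Input and IP columns after TMM scaling in either. Eif3k was lowest at -1.83 and -2.34, the first of which turned higher on total counts. Eif3f was called lower only in the control pair (-0.59), a value close to the 1.5-fold limit that missed it without any of 4 columns (-0.47 without Input control column 3, -0.53 without IP control column 1, -0.43 without IP control column 2 and -0.54 without IP control column 3). Eif3h and Eif3i were called lower only in the libraries labelled shGpr151, at -0.84 and -0.90, against -0.31 and -0.30 in control. Eif3f, Eif3h and Eif3i were all higher on total counts.

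**Figure D2:**
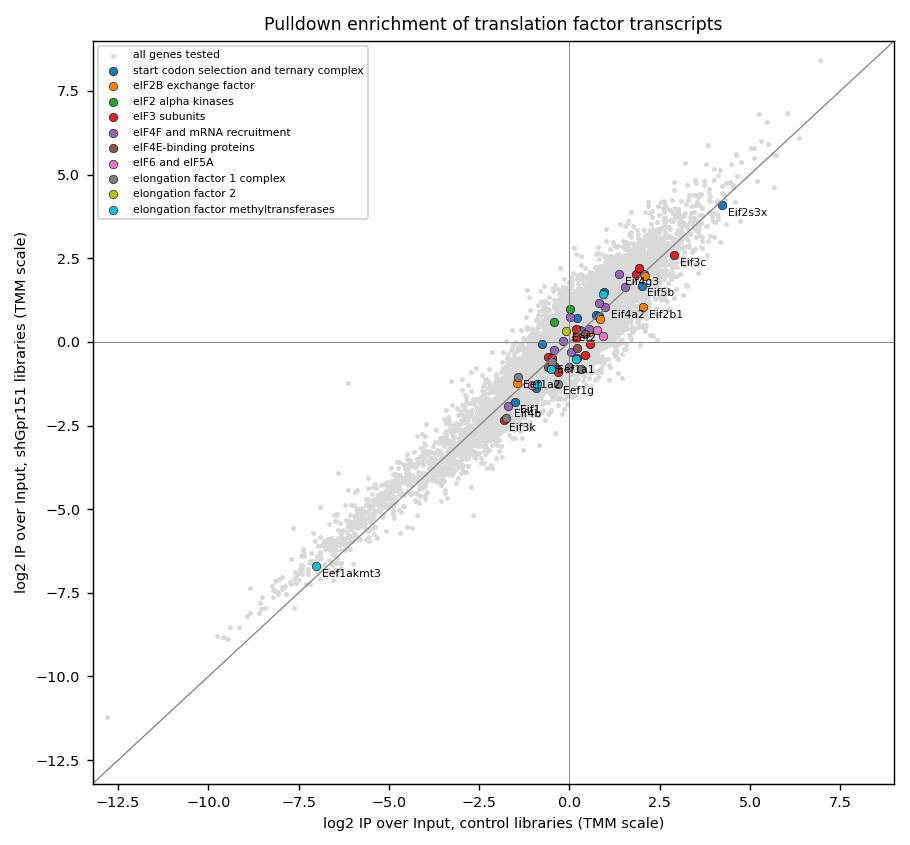
Log2 ratio of IP over Input on the TMM scale in the control libraries (horizontal axis) and in the libraries labelled shGpr151 (vertical axis), with all 8312 genes in grey and the 60 members coloured by role. Members follow the diagonal, from Eif2s3x at 4.23 and 4.09 to Eef1akmt3 at -7.02 and -6.71.

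Among 10 genes of eIF4F and messenger RNA recruitment, 4 were called higher in the control pair and 5 in the shGpr151 pair, against 30.5% and 32.1% of all genes. Eif4b was the gene called lower in both, against 30.7% and 31.5%. Eif4b, which aids the helicase, had 42, 43 and 34, then 57, 49 and 43, then 36, 40 and 35, then 34, 31 and 31 counts by column and ratios of -1.70 (95% interval -2.08 to -1.31) and -1.92. It turns higher on total counts, at 0.48 and 0.27. The higher ones in both were Eif4e (1.53 and 1.64), Eif4g3 (1.38 and 2.03), Eif4a2 (0.99 and 1.03) and Eif4h (0.82 and 1.18). Eif4g1 joined them in the shGpr151 pair alone (0.023 and 0.74). Eif4g2, a cap-independent relative, had 179, 186 and 171 counts in Input control and 164, 182 and 172 in Input shGpr151, and in IP 413, 420 and 383 in control and 347, 393 and 325 in shGpr151, with ratios of -0.41 and -0.25. The 4E-binding proteins had no call: Eif4ebp1 stood at 0.44 and 0.22, and Eif4ebp2 at 0.21 and -0.18 on 10 and 35 counts in the control pair. Eif4enif1, the 4E-transporter, gave -0.60 and -0.74, both within counting error.

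The eEF1 genes and Eef2 held no higher call in the pulldown. The group of 6 holds the eEF1 complex genes and, by its name only, Eef1e1, a scaffold protein of the aminoacyl-tRNA synthetase complex. None of the 6 was called higher in either pair, against 30.5% and 32.1% of all genes. In the control pair 2 were called lower and in the shGpr151 pair all 6, against 30.7% and 31.5%. Their medians were -0.40 and -0.94, against 0.056 and 0.098 for all genes. Eef1d was at -1.75 and -2.29 and Eef1a2 at -1.43 and -1.06. Eef1g was at -0.32 and -1.25, Eef1b2 at 0.0011 and -0.74, and Eef1e1 at 0.32 and -0.81. Eef1a1 was at -0.48 and -0.59, the second value missing 1.5-fold without either of 2 columns (-0.57 without IP shGpr151 column 1 and -0.57 without IP shGpr151 column 3). All of these lower calls turn higher on total counts except that of Eef1d in the shGpr151 pair. Eef2 was at -0.081 and 0.34, not called in either pair. Of the factors outside these complexes, Eif5a was lower (-1.04 and -1.28) with the sign turned on total counts, and Eif6, which holds the ribosomal subunits apart, was higher in control (0.94) and not called in the other pair (0.17).

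The methyltransferase genes that modify elongation factors held the lowest ratio of all members. Eef1akmt3 had 567, 600 and 630 counts in Input control and 477, 619 and 484 in Input shGpr151, and in IP 14, 16 and 12 in control and 15, 16 and 6 in shGpr151. Its ratios were -7.02 (95% interval -7.49 to -6.57) and -6.71 (95% interval -7.22 to -6.24), and it was lower on total counts as well. The gene overlaps Mettl1 in the annotation, whose summed counts ran the other way, at 7 and 18 in Input and 201 and 141 in IP, and whether strand was used in counting is not stated. Eef1akmt1 was lower in both pairs (-0.90 and -1.26, higher on total counts). Eef1akmt2 was called lower in the shGpr151 pair (-0.82, higher on total counts) but not without either of 2 columns (-0.54 without Input shGpr151 column 1 and -0.62 without IP shGpr151 column 1). Eef2kmt was higher in both, at 0.92 and 1.43 on 19 and 12 Input counts, the former not called at 0.49 without Input control column 2.

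The comparison of treatments sets the libraries labelled shGpr151 against the control libraries. Each group counts as 1 sample, and Input also held marker RNA of cells other than neurons. Whether the hairpin caused the differences was not tested. In Input 5 of 60 members (8.33%) were called higher and 2 (3.33%) lower in the library labelled shGpr151, against 4.32% and 4.78% of all genes. Their median log2 ratio was 0.084, against -0.066 for all genes. Counting any size beyond counting error, 16 members (26.7%) were higher and 7 (11.7%) lower, against 11.6% and 13.1% of all genes, which had fewer counts. In IP 1 member was higher and 1 lower (1.67% each, against 2.29% and 1.08% of all genes), with 6 (10%) and 14 (23.3%) beyond counting error at any size, against 9.35% and 10.8%. The IP median was -0.069 (all genes 0.0034), and 39 of 60 ratios were below 0. The IP ratios were thus mostly small, and several of them lay on the side opposite to Input.

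**Figure D3:**
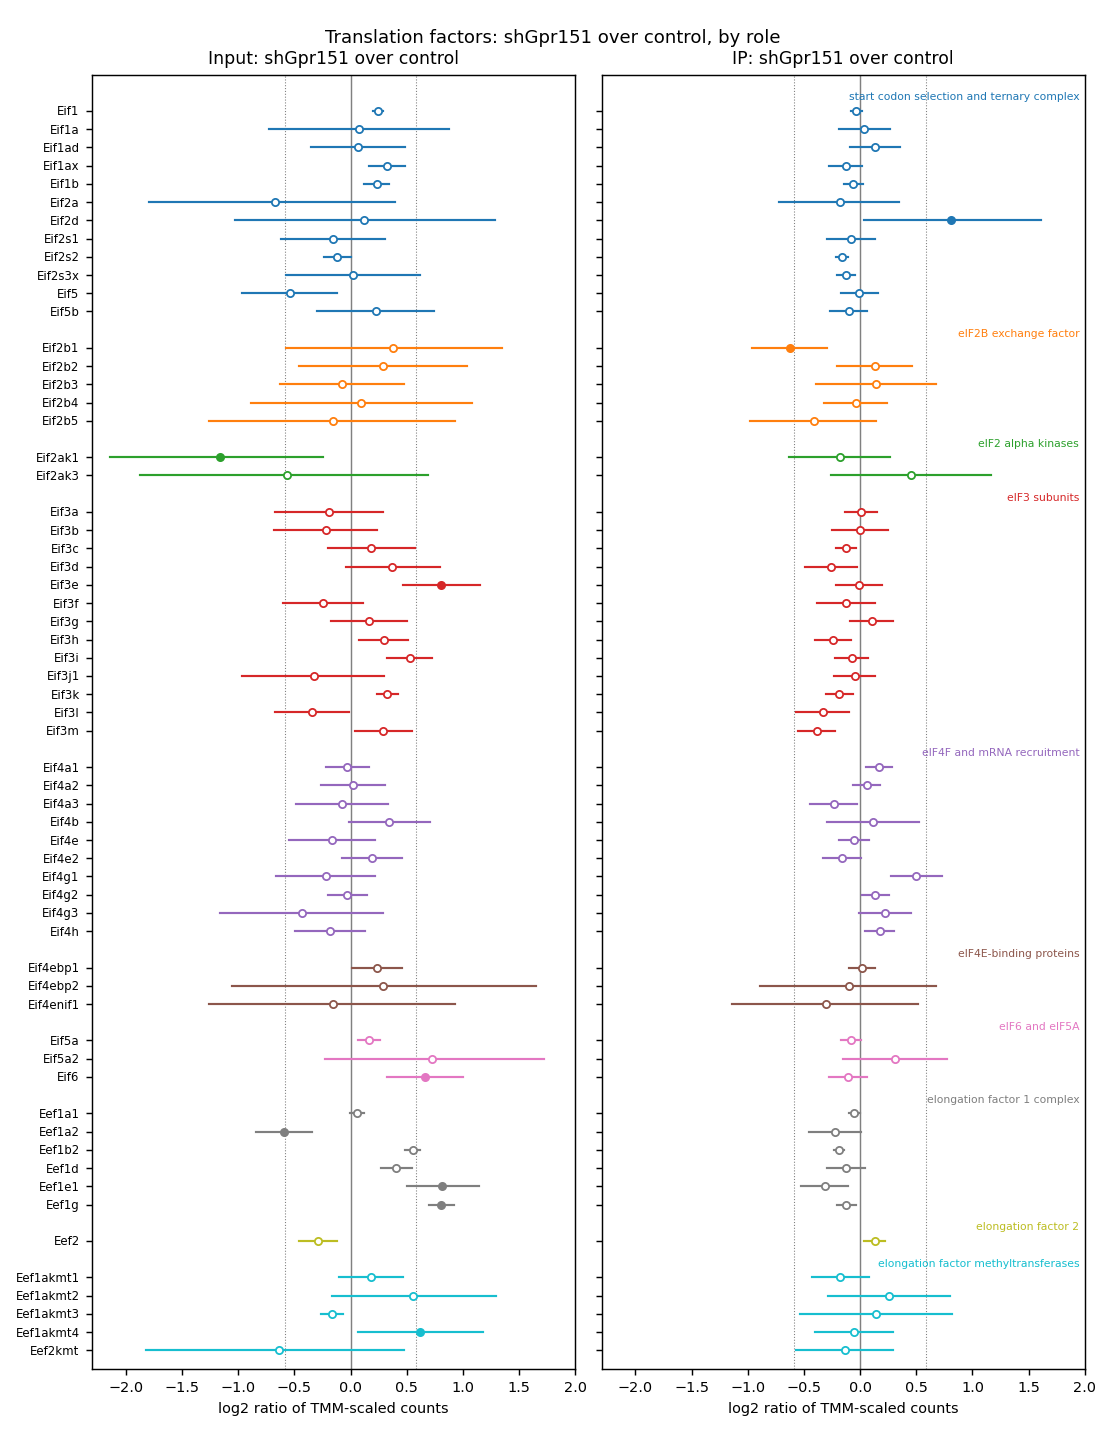
Log2 ratio of shGpr151 over control for the 60 members, in Input (left) and IP (right), grouped and coloured by role, on the TMM scale. Lines are 95% intervals on counting error, filled points are called members and dotted lines mark 1.5-fold. Input holds 7 filled points and IP holds 2.

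The genes grouped as eEF1, Eef1e1 among them, held 3 of the 7 calls in Input. Eef1g, the gamma subunit of eEF1B, had 369, 357 and 325 counts in Input control and 582, 600 and 632 in Input shGpr151, and in IP 864, 837 and 852 in control and 619, 610 and 640 in shGpr151. The Input columns of the 2 treatments did not overlap, and its Input ratio was 0.81 (95% interval 0.70 to 0.92). In IP it was -0.12 (95% interval -0.21 to -0.036). Eef1e1, a scaffold protein of the aminoacyl-tRNA synthetase complex despite its elongation factor name, had 45, 48 and 36 counts in Input control and 89, 73 and 62 in Input shGpr151, and in IP 165, 146 and 176 in control and 115, 96 and 101 in shGpr151. Its Input ratio was 0.82 (95% interval 0.50 to 1.14) and its IP ratio -0.32 (95% interval -0.53 to -0.11), with no overlap of the treatments' TMM-scaled columns in either, although on plain CPM the highest shGpr151 column in IP lay just above the lowest control column.

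Eef1b2 had 1065, 1054 and 1012 counts in Input control and 1482, 1498 and 1552 in Input shGpr151, and in IP 3116, 3173 and 3185 in control and 2154, 2229 and 2261 in shGpr151. Its Input ratio of 0.55 (95% interval 0.49 to 0.62) stayed under 1.5-fold, and its IP ratio was -0.18 (95% interval -0.23 to -0.14). Eef1d had 284, 258 and 216 counts in Input control and 324, 330 and 337 in Input shGpr151, and in IP 227, 231 and 224 in control and 190, 154 and 153 in shGpr151, with ratios of 0.41 (95% interval 0.27 to 0.55) and -0.13 (95% interval -0.30 to 0.039). All 3 eEF1B subunits were therefore higher beyond counting error in Input and none was in IP. Eef1g also took a larger part of eEF1B in Input, 21.3% (20.1 to 22.4) against 24.7% (23.7 to 25.7), with 20.1% (19.4 to 20.8) and 20.7% (19.9 to 21.6) in IP.

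The tRNA carriers themselves did not follow eEF1B. Eef1a1 had 1361, 1353 and 1368 counts in Input control and 1399, 1406 and 1391 in Input shGpr151, and in IP 2930, 2954 and 2950 in control and 2256, 2304 and 2241 in shGpr151, with ratios of 0.061 (95% interval -0.0015 to 0.12) in Input and -0.050 (95% interval -0.10 to -0.0046) in IP. Eef1a2 had 110, 108 and 120 counts in Input control and 84, 66 and 71 in Input shGpr151, and in IP 120, 136 and 123 in control and 91, 75 and 93 in shGpr151. It was lower in Input at -0.59 (95% interval -0.84 to -0.34), just past the 1.5-fold limit, and missed that limit without any of 3 columns (-0.54 without Input control column 3, -0.52 without Input shGpr151 column 2 and -0.56 without Input shGpr151 column 3), with the interval below 0 in each case. In IP its ratio was -0.22 (95% interval -0.46 to 0.0095). Eef2, the translocase, had 248, 218 and 201 counts in Input control and 173, 189 and 176 in Input shGpr151, and in IP 645, 669 and 592 in control and 535, 594 and 532 in shGpr151. It was lower in Input, -0.29 (95% interval -0.46 to -0.12), and higher in IP, 0.13 (95% interval 0.033 to 0.22), in both under 1.5-fold.

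**Figure D4:**
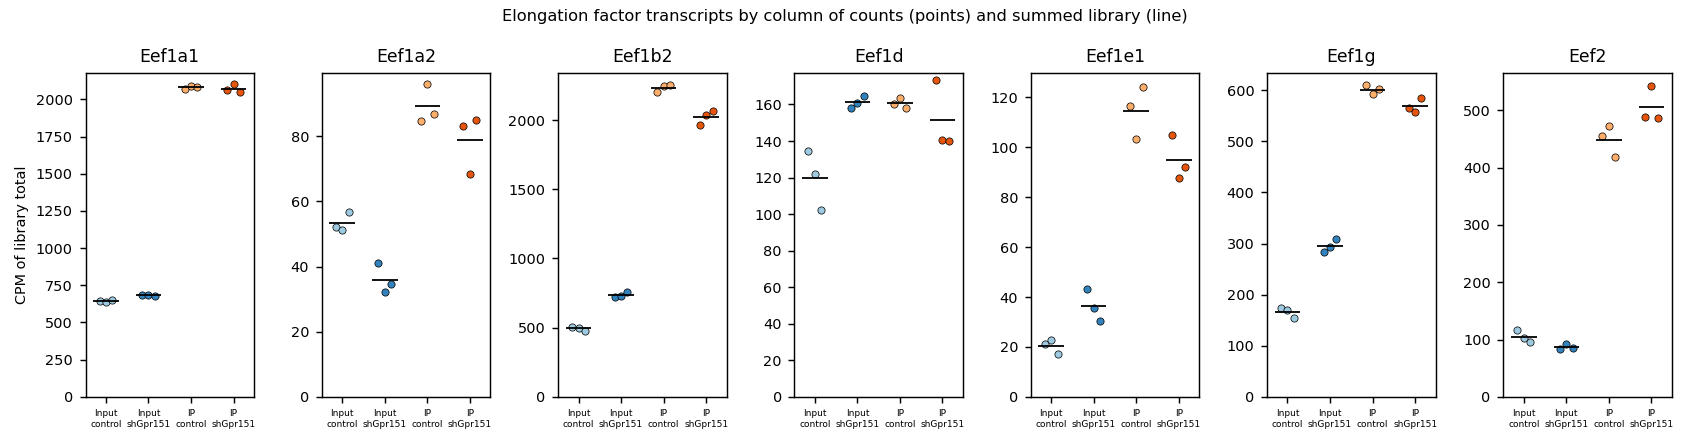
CPM of the library total for 7 elongation factor genes, with 1 point per column of counts and a line at the level of the summed group. The vertical axes start at 0 and differ between panels. In every column Eef1a1, Eef1b2, Eef1d, Eef1e1 and Eef1g are higher in Input shGpr151 than in Input control, and Eef1a2 and Eef2 are lower. Every IP point exceeds every Input point in all panels but Eef1d. On this scale of total counts that is not read as enrichment.

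Among the eIF3 genes 3 of 13 were beyond counting error in opposite directions, higher in Input and lower in IP. The share of all genes with that pattern was not counted, so the 3 are not read as a trait of eIF3. In Input 1 of 13 was called higher (4.32% of all genes) and 5 were higher beyond counting error, with 1 lower (11.6% and 13.1%). In IP 0 were higher and 6 lower beyond counting error (9.35% and 10.8%), with a median of -0.12. Eif3e, the subunit called, had 34, 38 and 41 counts in Input control and 63, 76 and 56 in Input shGpr151, and in IP 145, 158 and 158 in control and 102, 139 and 124 in shGpr151. The Input treatments did not overlap (0.81, 95% interval 0.47 to 1.16), and in IP they did (-0.0099, 95% interval -0.21 to 0.19). The others higher in Input were Eif3i (0.53), Eif3k (0.33), Eif3h (0.30) and Eif3m (0.29). The genes lower in IP were Eif3m (-0.39), Eif3h (-0.24) and Eif3k (-0.19), which make up the 3, together with Eif3l (-0.33), Eif3d (-0.26) and Eif3c (-0.13). Eif3l, -0.35 in Input, was lower beyond counting error in both materials.

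The eIF4F genes passed counting error in IP only. In Input 0 of 10 did so in either direction, against 11.6% of all genes higher and 13.1% lower. In IP 4 were higher beyond counting error (Eif4g1, Eif4h, Eif4a1 and Eif4g2), against 9.35% of all genes. There 1 was lower (Eif4a3, a helicase of the exon junction complex, -0.23), against 10.8%. Eif4g1, the main eIF4G scaffold, had 31, 33 and 33 counts in Input control and 26, 27 and 29 in Input shGpr151, and in IP 130, 92 and 76 in control and 116, 109 and 111 in shGpr151. The 3 IP control columns spread more than counting error allows, from 76 to 130, yet once scaled for depth all 3 lay below the columns labelled IP shGpr151. Its ratio was -0.22 (95% interval -0.66 to 0.22) in Input and 0.50 (95% interval 0.27 to 0.73) in IP. The ratios of Eif4h (0.17), Eif4a1 (0.17) and Eif4g2 (0.14) in IP were small. Eif4ebp1, the mTORC1-controlled brake on eIF4E, had 104, 110 and 106 counts in Input control and 121, 112 and 138 in Input shGpr151, and in IP 434, 437 and 443 in control and 339, 351 and 370 in shGpr151, a ratio of 0.23 (95% interval 0.015 to 0.45) in Input and 0.017 (95% interval -0.10 to 0.13) in IP. Eif4ebp2 had too few counts to be read, with 2, 5 and 3, then 4, 3 and 5, then 9, 13 and 13, then 7, 9 and 10 by column.

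For initiation at the start codon 0 of 12 genes were called in Input. Those higher beyond counting error were Eif1ax (0.32), Eif1 (0.24) and Eif1b (0.23), and those lower were Eif5 (-0.54) and Eif2s2 (-0.12). In IP Eif2s2 (-0.16) and Eif2s3x (-0.13) were lower beyond counting error. Eif2d, a factor that can deliver initiator tRNA without eIF2, was called higher in IP at 0.81 (95% interval 0.031 to 1.61) on 3, 5 and 6, then 6, 4 and 5, then 8, 7 and 10, then 13, 13 and 9 counts by column. That call rests on 25 and 35 counts and ended when any of 4 columns was left out (0.76 without IP control column 1, 0.68 without IP control column 2, 0.71 without IP shGpr151 column 1 and 0.71 without IP shGpr151 column 2). Eif2b1, the regulatory alpha subunit of eIF2B, was called lower in IP at -0.62 (95% interval -0.96 to -0.29). Its columns held 3, 7 and 8, then 3, 13 and 7, then 75, 71 and 78, then 31, 41 and 44 counts, without overlap between the IP treatments once scaled, and its ratio was -0.50 without IP shGpr151 column 1. The other eIF2B genes ranged from -0.41 (Eif2b5) to 0.14 (Eif2b3) in IP, all within counting error.

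Eif2ak1, the heme-regulated eIF2 alpha kinase, had 10, 14 and 10 counts in Input control and 2, 8 and 5 in Input shGpr151, and in IP 43, 27 and 34 in control and 24, 24 and 25 in shGpr151. It was called lower in Input at -1.16 (95% interval -2.14 to -0.24), but not without either of 2 columns (-0.99 without Input control column 2 and -0.78 without Input shGpr151 column 1), and its IP ratio was -0.18 (95% interval -0.64 to 0.26). The gene overlaps Aimp2, whose summed counts were 69 and 179 in Input and 378 and 289 in IP, and reads of overlapping genes may not have been told apart. Eif6, which is known to guard the pool of free large subunits, had 38, 44 and 38 counts in Input control and 68, 61 and 58 in Input shGpr151, and in IP 232, 220 and 243 in control and 159, 181 and 174 in shGpr151. It was called higher in Input at 0.66 (95% interval 0.32 to 1.00), with no overlap between the treatments, and stood at -0.11 (95% interval -0.28 to 0.058) in IP. Eif5a was 0.16 in Input, beyond counting error, and -0.081 in IP. Of the methyltransferases Eef1akmt4 was called higher in Input (0.62, 95% interval 0.065 to 1.18) on 11, 15 and 21 against 31, 23 and 17 counts, and lost the call without any of 3 columns (0.42 without Input control column 1, 0.58 without Input control column 2 and 0.37 without Input shGpr151 column 1). Eef1akmt3 was -0.16 and 0.14.

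The difference between the treatment ratios, IP minus Input, used all 4 libraries. It was called lower for 10 of 60 members (16.7%) and higher for 1 (1.67%), against 7.13% and 8.73% of all genes, with a median of -0.145 against 0.059. At any size beyond counting error 19 members (31.7%) were lower and 5 (8.33%) higher, against 13.1% and 11.9%. The lower ones included 3 of the 6 genes grouped as eEF1: Eef1e1 (-1.13, 95% interval -1.51 to -0.76), which belongs by name only, Eef1g (-0.93) and Eef1b2 (-0.74). They also included 4 of the 13 eIF3 genes, namely Eif3e (-0.82), Eif3m (-0.68), Eif3d (-0.63) and Eif3i (-0.60). The remaining 3 were Eif2b1 (-0.997), Eif6 (-0.77) and Eef1akmt4 (-0.67). The member called higher was Eif4g1 (0.72, 95% interval 0.24 to 1.201), and the others above 0 beyond counting error were Eif5 (0.53), Eef2 (0.42), Eef1a2 (0.37) and Eif4h (0.36). For Eif4g1 the value was 0.48 without IP control column 3. Eif2b1 lost its call at -0.68 without Input control column 1, -0.38 without Input shGpr151 column 2 and -0.93 without IP shGpr151 column 1, and Eef1akmt4 at -0.47 without Input control column 1, -0.63 without Input control column 2 and -0.43 without Input shGpr151 column 1. Eif3d lost it at -0.55 without Input control column 2, -0.52 without Input control column 3 and -0.45 without Input shGpr151 column 1, and Eif3i at -0.52 without Input control column 2, -0.51 without Input shGpr151 column 2 and -0.58 without IP control column 2. Markers of other cell types and of neurons also differed between the Input libraries. The summed neuron markers stood at 1109 against 1299 CPM, but the median ratio of the 10 genes was -0.089: Uchl1 was at 0.44, while Snap25 (-0.75, called), Prph (-0.43), Nefm (-0.31) and Nefl (-0.24) were lower beyond counting error. Of the 6 satellite glia markers Cdh19 (-2.15) and Glul (-0.66) were called lower, Apoe was at -0.57 and Fabp7 at 0.37, with a median of -0.39. The 5 fibroblast markers had a median of -0.26, the 10 macrophage markers 0.21, the 5 Schwann markers 0.12 and the 4 endothelial and mural markers compared 0.37. In the difference 3 of 6 satellite glia, 2 of 5 fibroblast, 1 of 5 Schwann and 1 of 10 neuron markers were called higher, and 1 each of the glia, neuron and endothelial and mural markers lower. Their part in these results was not tested.

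Members known as TOP messages (Eef1a1, Eef1b2, Eef1d, Eef1g, Eef2, Eif3e, Eif3f, Eif3h and Eif4b) were also taken as a list. In Input 2 of the 9 were called higher and 0 lower, with a median of 0.35, against 3 and 2 of the 51 other members with a median of 0.066, and against 4.32% and 4.78% of all genes with a median of -0.066. In IP 0 were called, with a median of -0.12 against -0.062. In the pulldown comparison 0 were called higher in either pair, 3 were lower in the control pair and 6 in the shGpr151 pair, with medians of -0.32 and -0.74 against 0.22 and 0.29 for the other members. Lower calls took 30.7% and 31.5% of all genes. Except for Eef1d in the shGpr151 pair, those lower calls turn on total counts. The list was not uniform in Input, since Eef1g (0.81) and Eef2 (-0.29) stood at its ends. The 8 members with a pyrimidine run in the start-site window ranged from -0.35 (Eif3l) to 0.28 (Eif2b2) in Input, and from -0.60 (Eif4enif1) to 4.23 (Eif2s3x) in the control pulldown. There 3 of the 8 were called higher and 1 lower, against 30.5% and 30.7% of all genes.

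Genes that act beside these factors, taken from lists by function, were called between treatments in Input in 4 cases higher and 3 lower of 63, and in IP in 1 case higher and 0 lower. Of all genes 4.32% and 4.78% were called in Input and 2.29% and 1.08% in IP. Of 14 genes of mTORC1 and TOP control 0 were called in Input, and in IP 1 was called higher, Tsc2, an inhibitor of mTORC1 (0.77, 95% interval 0.24 to 1.31, on 53 and 72 counts). Of 9 genes downstream of the integrated stress response 1 was called lower in Input, Chac1 (-0.85, 95% interval -1.64 to -0.10, on 44 and 24 counts), and 0 in IP. Of 13 other initiation helpers and repressors 1 was called higher in Input, Rack1, a scaffold on the small subunit (0.74, 95% interval 0.66 to 0.83), and 1 lower, Cyfip1, which represses eIF4E (-0.71, 95% interval -1.42 to -0.011). Of 7 genes of termination, recycling and rescue 1 was called higher in Input, Mcts1, which works in recycling and reinitiation (0.64, 95% interval 0.43 to 0.84). Of 6 enzymes of hypusine and diphthamide, the modifications of eIF5A and eEF2, 1 was called higher in Input, Dph5 (0.68, 95% interval 0.24 to 1.13). Of 7 mitochondrial translation factors 1 was called higher in Input, Tufm, the mitochondrial counterpart of eEF1A (0.82, 95% interval 0.25 to 1.40). In IP 0 genes of these last 4 lists were called. Of 7 genes of poly(A)-binding proteins and partners 1 was called in Input, Pabpc1, with 11702 counts in Input control against 371, and 502 and 384 in IP, where 0 of the 7 were called.

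In the pulldown the same lists held large ratios in both directions. Etf1, the release factor that reads stop codons, stood at 3.05 (95% interval 2.74 to 3.36) in the control pair and 3.08 in the shGpr151 pair. Abce1, which splits ribosomes after termination, stood at -3.89 (95% interval -4.09 to -3.68) and -3.27, a direction that held on total counts. Lower still were Pan3 of the poly(A) list, at -6.34 and -5.74, and in the control pair Pabpc1, at -6.14 (-1.24 in the shGpr151 pair). Of the 7 genes of termination, recycling and rescue 2 were called higher in both pairs, and 4 and 5 lower. Among the 13 initiation helpers and repressors 6 were called higher in each pair, with Fmr1 in the control pair only and Cyfip1 in the shGpr151 pair only, and 3 and 2 were called lower. Of the mTORC1 list 2 of 14 were called in each direction in both pairs. Of 7 genes of poly(A)-binding proteins and partners 3 were called higher in both pairs, and 3 and 4 lower. Of 9 stress response genes 2 and 3 were higher, and 1 and 3 lower. The 6 hypusine and diphthamide enzymes had 1 and 0 higher calls, and 3 lower in both pairs. The 7 mitochondrial factors had 3 and 1 higher, and 1 lower in both. Beside these list counts, 30.5% and 32.1% of all genes were called higher and 30.7% and 31.5% lower, control pair first.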

How the data were processed

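Whole-number counts per gene, not normalized, were deposited by the authors for 12 nanopore cDNA samples (4 groups of 3 columns). The submitters' processing notes name minimap2, Salmon, GRCm39 and mm39, with no versions. Neither the use of strand nor the assignment of reads common to paralogs, pseudogenes and overlapping genes is stated there, so values of such genes are uncertain, and transcript length was not analysed. The lowest count in the table is 1. Symbols were found for 9061 IDs and 12 had none. The labels do not say whether columns of a group came from separate animals. Over all genes, columns of a group agreed to about counting noise, so counts were summed by group.

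Genes were filtered with filterByExpr (minimum count 10) and scaled by TMM (R 4.3.3, edgeR 4.0.16, limma 3.58.1) over all 12 columns. Ratios of summed counts carry exact conditional binomial (Clopper-Pearson) 95% intervals, CPM and shares exact intervals, and the difference of ratios a Wald interval. No p-value is given, since each group counts as 1 sample. Alternatives were RLE size factors, total counts, a mean of 20 counts or no filter, a 2-fold limit, each column left out, and edgeR's quasi-likelihood test (with and without a replicate block) and DESeq2 1.42.0 on the columns. The scripts were tested on simulated data. Promoter windows are from RefSeq and figures were drawn with matplotlib 3.10.9. Named by column were the main elongation factors, eIF2, eIF4F, 4E-binding and eIF5A/eIF6 genes and up to 4 members with the largest ratios per direction and comparison. Named by ratio were other called members, and the called genes of pathway lists. Eif2ak2 was not analysed here. Members and lists were chosen with earlier results of these data known.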

Additional observations from a re-analysis of the deposited data

Results flagged for a closer look

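In 10 members every TMM-scaled column labelled shGpr151 lay above every control column in Input and below every control column in IP, and in 1 member, Eif4g1, the reverse held. Of the 10, 6 had ratios beyond counting error in both. Their log2 ratios of shGpr151 over control in Input and IP were 0.55 and -0.18 for Eef1b2, 0.81 and -0.12 for Eef1g, and 0.82 and -0.32 for Eef1e1. Among eIF3 genes they were 0.30 and -0.24 for Eif3h, 0.33 and -0.19 for Eif3k, and 0.29 and -0.39 for Eif3m. The other 4 had 0.061 and -0.050 (Eef1a1), 0.24 and -0.033 (Eif1), 0.32 and -0.13 (Eif1ax) and 0.16 and -0.081 (Eif5a), each within counting error in 1 of the comparisons. Eif4g1 had -0.22, within counting error, and 0.50. These differences were not tested over independent samples, since the 3 columns of a group count as 1 sample. How many of all genes had such columns was not counted, and members had more counts than most genes. The numbers are therefore not read as a trait of the members.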

How the results depend on the processing

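Values of single members under the alternatives were set against the main interval, and in edgeR's test against the main call. Of them 447 stayed within that interval or kept the call, and 65 moved out of it. In edgeR's test 5 lost the call, and 25 called ratios turned, all 25 of them pulldown ratios on total counts. Calls lost by leaving out a column are not among the 5. With each column left out in turn, 4 of 7 calls always held in Input and 0 of 2 in IP. In the pulldown 27 of 29 and 32 of 37 held, and in the difference 6 of 11. With total counts as the scale, the members called higher in the pulldown numbered 56 in control (18 with TMM) and 55 in shGpr151 (19), those lower 1 and 1 (11 and 18), and the medians were 2.35 and 2.26 (0.17 and 0.068). The turned control ratios were Eef1a2 0.74, Eef1akmt1 1.28, Eef1d 0.42, Eif1 0.66, Eif1ax 1.25, Eif2b3 0.71, Eif3f 1.58, Eif3k 0.35, Eif4b 0.48 and Eif5a 1.14. The turned shGpr151 ratios were Eef1a1 1.60, Eef1a2 1.13, Eef1akmt1 0.94, Eef1akmt2 1.37, Eef1b2 1.46, Eef1e1 1.38, Eef1g 0.95, Eif1 0.40, Eif1ax 0.82, Eif1b 1.48, Eif2b3 0.95, Eif3h 1.36, Eif3i 1.29, Eif4b 0.27 and Eif5a 0.92. The scale itself sets these shifts. Elsewhere total counts gave 1 lower call in Input (main 2), 0 lower in IP (main 1) and 2 higher in the difference (main 1). RLE gave 1 lower call in Input. At 2-fold, by construction stricter, Input had 0 higher and 1 lower, IP 0 and 0, the control pulldown 10 higher, the shGpr151 pulldown 11 lower, and the difference 0 higher and 1 lower. A mean of 20 counts gave 0 higher in IP, and 3 higher and 6 lower in the difference (main 1 and 10). DESeq2 gave 0 lower in Input, 0 and 0 in IP and 0 higher in the difference, and edgeR 0 higher in IP. For those changes the cause was not tested. Leaving out 1 column gave 4 to 6 higher and 1 to 3 lower in Input, 0 to 1 each in IP, 17 to 20 higher and 10 to 12 lower in the control pulldown, 18 to 19 and 16 to 19 in the shGpr151 pulldown, and 0 to 4 higher and 7 to 13 lower in the difference. The medians ran from 0.034 to 0.153, from -0.096 to -0.082, from 0.114 to 0.29, from -0.0045 to 0.107 and from -0.247 to -0.065 in that order. Low counts leave wide intervals for genes such as Eif4ebp2, Eif2ak3, Eif2d and Eef2kmt.

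Columns with the same replicate number did not deviate together (correlations of -0.0118 to 0.0185 in 18 pairs), so the numbers were not taken as pairs. With the number as a replicate block edgeR called 0 members higher in IP and 1 lower in Input, and of the 7 members called in Input 5 kept the call, of 2 in IP 1, of 29 and 37 in the pulldown all, and of 11 in the difference 8.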
